A study of Caenorhabditis elegans with 4 samples.

Results

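Small heat shock proteins are short chaperones built around a conserved alpha-crystallin domain. They bind proteins that begin to unfold and hold them without using ATP until the Hsp70 machinery can refold them. In Caenorhabditis elegans the hsp-16 genes are silent in unstressed animals and are switched on by heat through the transcription factor HSF-1, whereas other members of the family are made without heat, in particular tissues or stages. Small heat shock protein genes that are targets of HSF-1 and of the FOXO factor DAF-16 are known to contribute to longevity in worms with reduced insulin signaling.

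The 10 genes described here were chosen by name, as members of this family: hsp-16.2 (Y46H3A.3), hsp-16.41 (Y46H3A.2), hsp-16.1 (T27E4.8), hsp-16.48 (T27E4.3), hsp-43 (C14F11.5), hsp-12.6 (F38E11.2), hsp-12.3 (F38E11.1), hsp-25 (C09B8.6), sip-1 (F43D9.4) and hsp-17 (F52E1.7). All 10 were found among the 17096 genes of the count table. Their reads came from 4 whole-worm libraries of N2, the wild-type laboratory strain, fed Escherichia coli OP50 or Bacillus subtilis PY79 and collected on day 4 or day 13 of adulthood. Each combination of diet and age has 1 library, there are no replicates, and heat was not part of the design. The 2 OP50 libraries held 28650595 reads (day 4) and 28552961 reads (day 13) of the chosen transcripts, and the 2 PY79 libraries 4838114 and 4469802, so that a gene with few reads was measured less well on PY79. The study's methods give FUDR, a drug that blocks progeny, for its aging timecourses and for its young against old transcriptome. For the diet libraries they describe repeated washing over nylon mesh during adulthood and do not name FUDR.

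Levels are given as reads and as CPM, reads per 1000000 of the library size after scaling by TMM, a method that sets the bulk of genes equal between libraries. A count of 0 allows up to 3 reads, which is 0.114 CPM in the OP50 day 4 library, 0.142 in OP50 day 13, 0.556 in PY79 day 4 and 0.513 in PY79 day 13. Intervals are exact 95% counting intervals. The reads carry no molecular identifiers and may repeat the same molecule, so these intervals and limits cover only counting error. They compare 2 libraries and not the conditions.

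The 10 genes spanned the whole range of the libraries. sip-1 was among the 3 most-read genes of every library, 6 genes had at least 10 reads in a library, hsp-12.3 and hsp-12.6 had between 0 and 7 reads, and hsp-16.1 and hsp-16.48 had 0 reads in all 4 libraries. sip-1 alone took between 99.7% and 99.96% of the reads of the 10 genes. The other 9 genes together had 376 reads in OP50 day 4, 216 in OP50 day 13, 167 in PY79 day 4 and 278 in PY79 day 13.

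**Figure D1:**
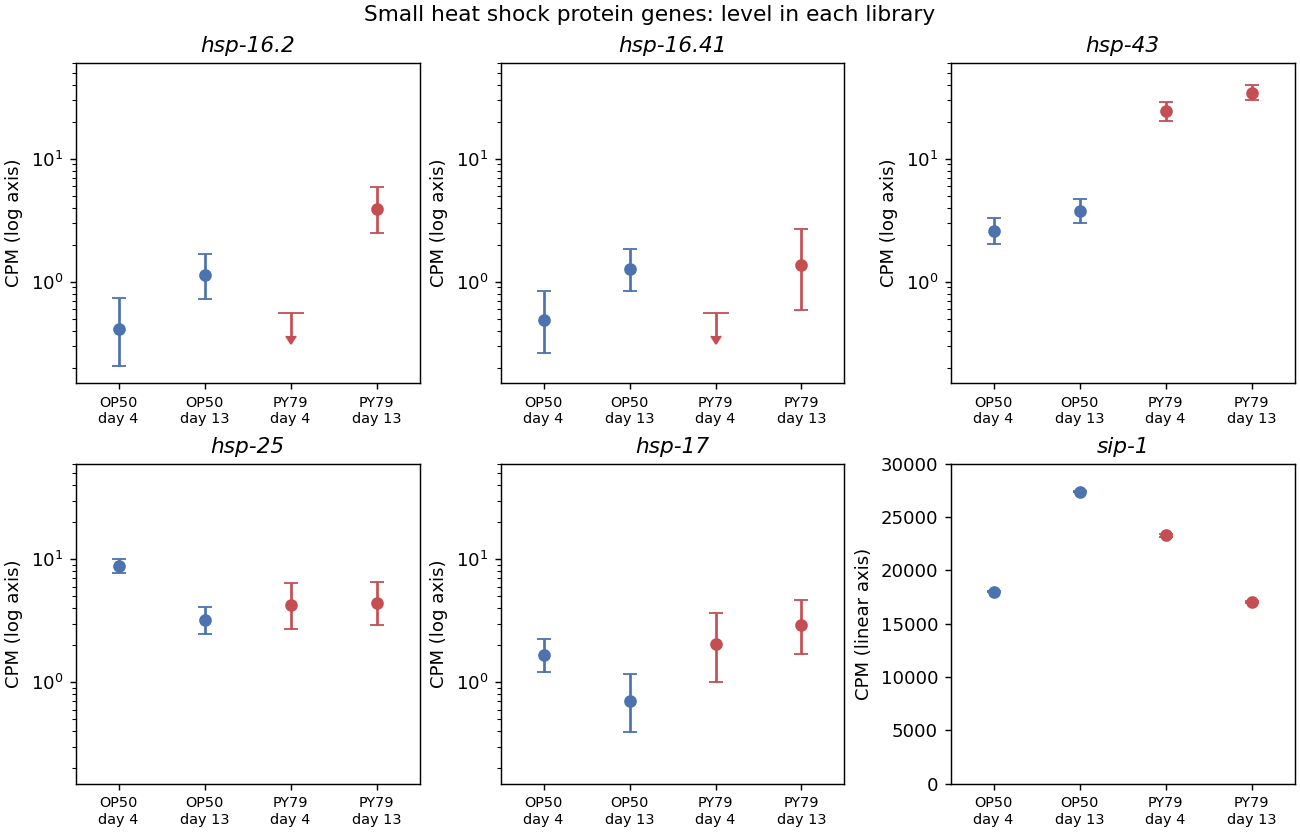
Level of the 6 small heat shock protein genes with at least 10 reads in a library, in CPM of TMM-scaled reads. Each point is 1 library (blue OP50, red PY79), bars are 95% counting intervals, and an arrow under a line marks a count of 0 drawn at its limit of 3 reads. Axes are logarithmic except for sip-1, which lies between 17044 and 27375.2 CPM, and hsp-43 is higher in both PY79 libraries than in both OP50 libraries.

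The hsp-16 genes stand in divergent pairs. In the Ensembl 115 annotation hsp-16.2 and hsp-16.41 are neighbors on opposite strands, 220 bases apart, and both encode heat-inducible chaperones. hsp-16.2, widely used as a stress reporter, had 11 reads (0.417 CPM) in OP50 day 4, 24 (1.13 CPM) in OP50 day 13, 0 in PY79 day 4 and 23 (3.93 CPM) in PY79 day 13. The read counts were thus low throughout, and the day 13 library was the higher on each diet. hsp-16.41 had 13 reads (0.492 CPM), 27 (1.27 CPM), 0 and 8 (1.37 CPM), with the libraries in the same order. Its levels at day 13 were alike on the 2 diets within counting error, with a PY79 over OP50 ratio of 1.07 (0.42 to 2.43).

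On OP50 hsp-16.2 was 2.72-fold higher at day 13 (interval 1.28 to 6.15) and hsp-16.41 was 2.59-fold higher (1.29 to 5.46). On PY79 the day 4 library was at 0, and the exact interval of the age ratio began at 5.31 for hsp-16.2 and at 1.58 for hsp-16.41. With the day 4 count set to its limit of 3 reads and no allowance for error in the day 13 count, the folds were 7.08 and 2.46. Summed over the pair, the reads were 24, 51, 0 and 31, a ratio of 2.65 (1.60 to 4.50) with age on OP50 and an exact interval that began at 7.31 with age on PY79. At day 4 no diet difference could be read for either gene alone, because the OP50 levels of 0.417 and 0.492 CPM lie under the limit of the PY79 library. Summed over the pair, 0 reads on PY79 against 24 on OP50 gave a ratio of at most 0.812. At day 13 hsp-16.2 was 3.47-fold higher on PY79 (1.87 to 6.42). hsp-16.2 made up 45.8% (Clopper-Pearson interval 25.6 to 67.2) of the pair's reads in OP50 day 4, 47.1% (32.9 to 61.5) in OP50 day 13 and 74.2% (55.4 to 88.1) in PY79 day 13. The intervals of the day 13 libraries overlap, which does not show that the shares are alike, and their difference was not tested.

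The only test across all 4 libraries is an additive model of diet and day, fitted with edgeR's quasi-likelihood method over 9032 genes, with Benjamini-Hochberg adjustment over all of them and 1 residual degree of freedom. In it hsp-16.2 rose with age (log2 change 2.52, adjusted p = 0.0217), while hsp-16.41 did not pass (log2 1.99, adjusted p = 0.219). With a library at 0, these fitted changes depend on the prior count. The call for hsp-16.2 is lost when libraries are scaled by total reads (edgeR adjusted p = 0.447), although the log2 change there was 2.42. It is also lost in DESeq2's Wald test (adjusted p = 0.305). Its adjusted p in edgeR was at its lowest, 0.0171, with DESeq2 size factors. Among the 6 small heat shock protein genes tested, 1 rose with age and 0 fell, against 3.52% of all genes that rose and 4.05% that fell. At an unadjusted p under 0.05, 2 were higher and 0 lower in edgeR, and 1 was higher and 0 lower in DESeq2. No share of all genes was taken at an unadjusted p, so unadjusted counts here and below stand without a background.

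The other divergent pair, hsp-16.1 and hsp-16.48, had 0 reads in all 4 libraries. Its near-identical second copy, T27E4.2 and T27E4.9, which Ensembl 115 lists under the same symbols, also had 0 reads in each. No read fell in any library on 1883 of the 17096 genes. The study's methods express the reads of a gene as a share of the uniquely mapped ones. Reads that match both copies equally well may thus have been left out before counting, so the zeros set no limit on the level of these genes.

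hsp-43, which encodes a longer member of the family, was the gene with the clearest diet difference. It had 69 reads (2.61 CPM) in OP50 day 4, 80 (3.77 CPM) in OP50 day 13, 132 (24.4 CPM) in PY79 day 4 and 202 (34.5 CPM) in PY79 day 13. Both PY79 libraries lay above both OP50 libraries, in raw reads as well, although they hold fewer reads in all. hsp-43 was 9.36-fold higher on PY79 at day 4 (6.94 to 12.7) and 9.15-fold higher at day 13 (7.03 to 12.01). Scaling by total reads raises every day 13 diet ratio by 0.82 on the log2 scale, and with it the log2 ratio of hsp-43 at day 13 was 3.98 in place of 3.17. It rose with diet in the additive model (log2 change 3.21, edgeR adjusted p = 1.7e-05). This held in all alternatives tried, with an adjusted p between 3.4e-06 and 0.0297.

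With age hsp-43 was 1.45-fold higher on OP50 (1.03 to 2.02) and 1.41-fold higher on PY79 (1.13 to 1.77), short of a 2-fold difference. The age ratio on PY79 divided by that on OP50 was 0.978 (0.662 to 1.44). The age effect did not pass in edgeR (adjusted p = 0.878). Among the 6 genes, 1 rose with diet and 0 fell, against 14.8% of all genes that rose and 17% that fell, and at an unadjusted p under 0.05 the same counts were 1 and 0 in both edgeR and DESeq2.

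hsp-12.6 and hsp-12.3 encode very short family members with little tail beyond the alpha-crystallin domain, and hsp-12.6 is a known target of DAF-16 and HSF-1. hsp-12.6 had 0, 2, 0 and 0 reads in OP50 day 4, OP50 day 13, PY79 day 4 and PY79 day 13. hsp-12.3 had 7, 0, 1 and 2 reads. Neither reached 10 reads in a library. Between the OP50 libraries hsp-12.3 was lower at day 13, with a ratio of at most 0.865 by the exact interval. Differences between the diets were not detectable at this depth at day 4, since the OP50 level of hsp-12.3 (0.265 CPM) lies under the limit of the PY79 library.

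hsp-25, a long member of the family known from body wall muscle, had 232 reads (8.78 CPM) in OP50 day 4, 68 (3.21 CPM) in OP50 day 13, 23 (4.26 CPM) in PY79 day 4 and 26 (4.44 CPM) in PY79 day 13. The OP50 day 4 library stood above the other 3. With age hsp-25 was 2.74-fold lower on OP50 (2.08 to 3.64), and on PY79 its ratio was 1.04 (0.572 to 1.91). The PY79 age ratio was 2.86 times the OP50 age ratio (1.53 to 5.33), a difference between diets that was not tested for want of replicates. On PY79 it was 2.06-fold lower at day 4 (1.34 to 3.32) and had a ratio of 1.39 (0.846 to 2.21) at day 13. Neither effect passed in edgeR (adjusted p = 0.709 for age and 0.740 for diet). It overlaps ipp-5 on the opposite strand, which had 35, 12, 7 and 2 reads, and no source used here says whether strand was used in counting.

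The transcript lines of hsp-25 also differed between the diets. It has 6 annotated lines, of which a, b and c.4 held 169 reads each in OP50 day 4 and 35 each in OP50 day 13, and 0 in both PY79 libraries. Lines c.1 and c.2, the most read, held 232, 68, 23 and 26 reads, and line c.3 held 198, 46, 14 and 10. The count of line a was thus 72.8% (66.6 to 78.5) of that of line c.1 in OP50 day 4, 51.5% (39.0 to 63.8) in OP50 day 13, and 0 of 23 and 0 of 26 in the PY79 libraries, with exact upper limits of 14.8% and 13.2%. These shares take the reads of line a to be among those of line c.1. When the lines of each gene are summed, the log2 diet ratio of hsp-25 goes from -1.03 to -1.91 at day 4 and from 0.46 to -0.29 at day 13. Lines of a gene can share reads, so the sum may count a read more than once.

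hsp-17, a small heat shock protein gene of the hsp-16 size class, had 44 reads (1.67 CPM), 15 (0.708 CPM), 11 (2.04 CPM) and 17 (2.91 CPM) in OP50 day 4, OP50 day 13, PY79 day 4 and PY79 day 13. The OP50 day 13 library was the lowest. With age it was 2.35-fold lower on OP50 (1.29 to 4.55) and had a ratio of 1.43 (0.630 to 3.37) on PY79, and the ratio of these age ratios was 3.36 (1.29 to 8.76). PY79 over OP50 was 1.22 (0.569 to 2.41) at day 4 and 4.11 (1.93 to 8.83) at day 13. In edgeR neither age (adjusted p = 0.920) nor diet (adjusted p = 0.167) passed. hsp-17 overlaps F52E1.14, a gene on the opposite strand with 136, 7, 92 and 19 reads. That gene had fewer reads at day 13 than at day 4 on each diet. The part of this overlap in the hsp-17 counts was not tested.

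sip-1, known as a chaperone of oocytes and embryos that helps embryos withstand heat, had 475515 reads in OP50 day 4, 580281 in OP50 day 13, 125673 in PY79 day 4 and 99721 in PY79 day 13. It took 1.66%, 2.03%, 2.60% and 2.23% of all reads of the chosen transcripts. By reads it ranked 3 in OP50 day 4 and 2 in the other libraries. Only rps-25, a ribosomal protein gene, had more reads in each. Per kilobase of transcript sip-1 stood at 28132.3, 42773.7, 36357.0 and 26631.3 CPM, whereas the highest value among the other 9 genes was 24.9 CPM per kilobase, of hsp-43 in PY79 day 13. 3' end libraries count ends of transcripts, so levels per length understate longer genes.

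The sip-1 levels of 18004.7, 27375.2, 23268.5 and 17044.0 CPM differed in opposite directions with age on the 2 diets. At day 13 sip-1 was 1.52-fold higher on OP50 and 1.37-fold lower on PY79. It was 1.29-fold higher on PY79 at day 4 and 1.61-fold lower at day 13. With this many reads the counting intervals are narrow (1.515 to 1.526 for the first ratio), and what limits these values is the scaling and the single library per group. With total reads in place of TMM the day 13 diet ratio turns from lower to higher (log2 0.13 in place of -0.68). None of the 4 ratios reached 2-fold, and neither effect passed in edgeR (adjusted p = 0.984 for age and 0.841 for diet).

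**Figure D2:**
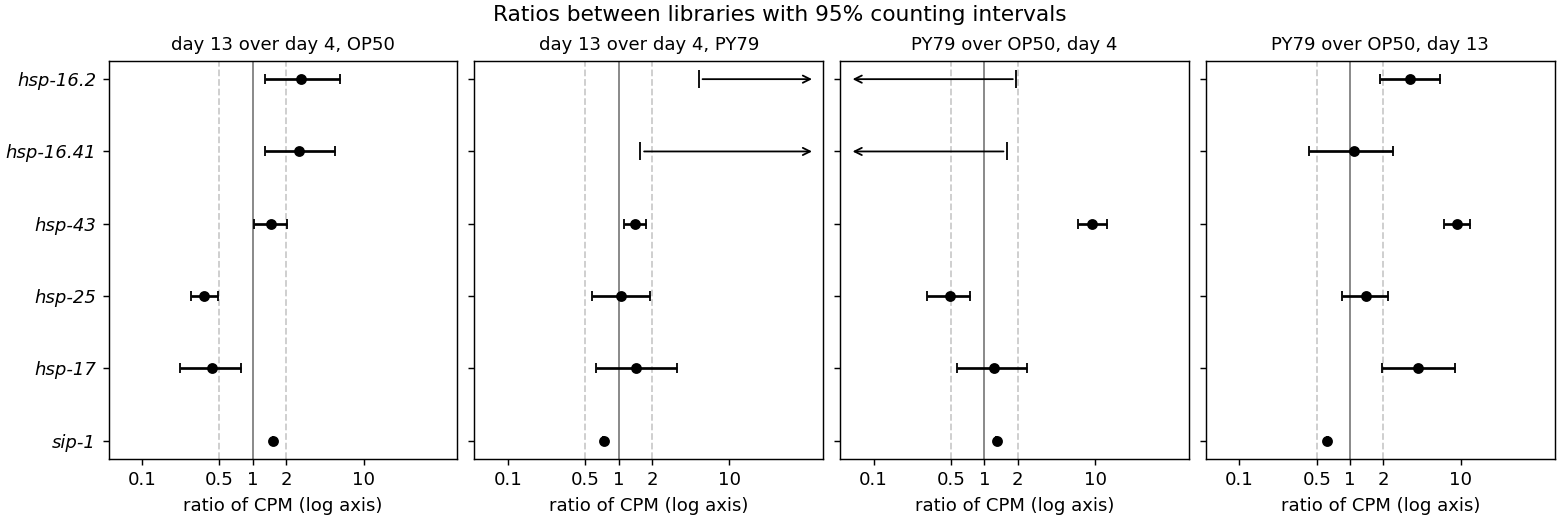
Ratios of CPM between pairs of libraries for the 6 genes, on a log axis, with exact 95% counting intervals. The solid line marks a ratio of 1, dashed lines mark 2-fold, and an arrow with a bar marks an interval that is open because 1 library had 0 reads. hsp-43 lies beyond 2-fold in both diet panels, and sip-1 lies on opposite sides of 1 in the 2 age panels.

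For each pair of libraries, a difference of 2-fold or more whose interval left out 1 was taken as a call. With age on OP50, 2 of the 6 genes were higher (hsp-16.2 and hsp-16.41) and 2 lower (hsp-25 and hsp-17), against 14.6% of all genes higher and 18.9% lower. With age on PY79, 2 were higher (the same pair) and 0 lower, against 6.31% and 7.97%. With diet at day 4, 1 was higher (hsp-43) and 1 lower (hsp-25), against 25.4% and 23.5%. With diet at day 13, 3 were higher (hsp-16.2, hsp-43 and hsp-17) and 0 lower, against 22.6% and 22.3%. The median log2 ratio of the 6 genes was 0.56, 0.50, -0.38 and 1.10 in these comparisons, beside 0.02, -0.11, -0.09 and 0.01 for all genes. The 6 genes passed the filter on low reads through their highest library, so these counts do not describe the other 4 members. An age and a diet comparison share libraries.

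The count of all genes on each side depends on the scaling. With total reads the share of called genes that were higher went from 43.7% to 27.3% for age on OP50, from 44.2% to 63.1% for age on PY79, and from 50.3% to 77.3% for diet at day 13. It went from 46.4% to 74.3% for diet in edgeR. For age in edgeR, 318 genes rose and 366 fell with TMM, and 0 rose and 1 fell under total-read scaling. In the order above, the all-gene medians moved to -0.28, 0.08, 0.16 and 0.78. With total reads the members called in each age comparison did not change, hsp-25 was no longer called at day 4, and hsp-25 was called higher on PY79 at day 13.

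Of 8 other genes of the family, 2 had at least 10 reads in a library and 1 was not analysed here. hsp-12.2 (C14B9.1), another short family member, had 524, 473, 25 and 23 reads (19.8, 22.3, 4.63 and 3.93 CPM). Its level was close between the ages, and both PY79 libraries were below both OP50 libraries. It was 4.29-fold lower on PY79 at day 4 (2.87 to 6.69) and 5.68-fold lower at day 13 (3.74 to 9.04), and it fell with diet (log2 change -2.30, edgeR adjusted p = 0.00198). With total reads this did not pass (adjusted p = 0.0561). Y55F3BR.6 had 17, 16, 15 and 15 reads (0.644, 0.755, 2.78 and 2.56 CPM) and rose with diet (log2 change 1.93, edgeR adjusted p = 0.0162), but not in DESeq2 (adjusted p = 0.240). The 2 genes thus differed with diet in opposite senses.

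The heat shock response list holds 13 further genes of Hsp70, Hsp90, their co-chaperones and the HSF-1 pathway, and all 13 were tested. With age 2 rose and 0 fell in edgeR, against 3.52% and 4.05% of all genes. With diet 2 rose (F44E5.4 and hsf-1) and 3 fell (hsp-1, sti-1 and dnj-12), against 14.8% and 17%. These names are given after their values were seen. The diet rises of F44E5.4 and hsf-1 (edgeR adjusted p = 0.0485 and 0.0487) were lost with DESeq2 size factors (adjusted p = 0.0713 and 0.0835) and in DESeq2's Wald test (0.322 and 0.252), where 0 rose and 4 fell. In that test 504 of all 9032 genes rose and 1276 fell with diet, and 158 rose and 142 fell with age. At an unadjusted p under 0.05 the age counts were 3 and 0, and DESeq2 gave 0 and 0 after adjustment and 2 and 0 before it. By pair of libraries 6 were higher and 1 lower with age on OP50, against 14.6% and 18.9% of all genes. On PY79 2 were higher and 0 lower with age, against 6.31% and 7.97%. With diet 2 were higher and 3 lower at day 4, against 25.4% and 23.5%. At day 13 the diet counts were 3 and 4, against 22.6% and 22.3%. The median log2 age ratio was 0.89 on OP50 and 0.08 on PY79, beside 0.02 and -0.11 for all genes. F44E5.4, F44E5.5 and hsp-70 passed the filter on low reads only through day 13 libraries, and all are among the 6 higher on OP50. F44E5.4 and F44E5.5 are also the 2 higher on PY79 and the 2 that rose in edgeR. The age counts of this list thus depend on the filter. With the filter applied to every library, 8 of the 13 were tested, and 0 rose and 0 fell with age in edgeR.

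The 2 that rose with age were F44E5.4 and F44E5.5, heat-inducible Hsp70 family genes that are named here after their values were seen. F44E5.4 had 3, 17, 2 and 22 reads (0.114, 0.802, 0.370 and 3.76 CPM; log2 change 3.00, edgeR adjusted p = 0.0131). F44E5.5 had 2, 15, 1 and 12 reads (log2 change 3.21, edgeR adjusted p = 0.0471). As with the hsp-16.2 pair, both genes had more reads at day 13 on each diet, and the level with TMM was highest in PY79 day 13. Unlike that pair, they passed the filter on low reads only through day 13 libraries. F44E5.4 and F44E5.5 are close copies, so their reads may not be fully separable, and neither passed with total reads (adjusted p = 0.149 and 0.234) or in DESeq2 (0.294 and 0.501). hsp-70 had 0, 10, 1 and 5 reads and did not pass (adjusted p = 0.172).

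The 4 most-read genes of the list did not pass for age. hsp-90, the cytosolic Hsp90, stood at 4253.9, 7909.2, 2690.2 and 2845.1 CPM, with an edgeR adjusted p of 0.861 for age and 0.104 for diet. hsp-1, the constitutive Hsp70, stood at 1280.9, 2891.4, 663.2 and 862.3 CPM, and fell with diet (log2 change -1.35, edgeR adjusted p = 0.0399). sti-1, a co-chaperone that links Hsp70 and Hsp90, stood at 36.4, 75.7, 13.9 and 14.2 CPM, and fell with diet (log2 change -1.91, edgeR adjusted p = 0.00728). hsp-110 stood at 10.3, 18.6, 30.7 and 28.5 CPM and did not pass. With total reads hsp-1, sti-1 and dnj-12 did not pass for diet (adjusted p = 0.0989, 0.0957 and 0.158).

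**Figure D3:**
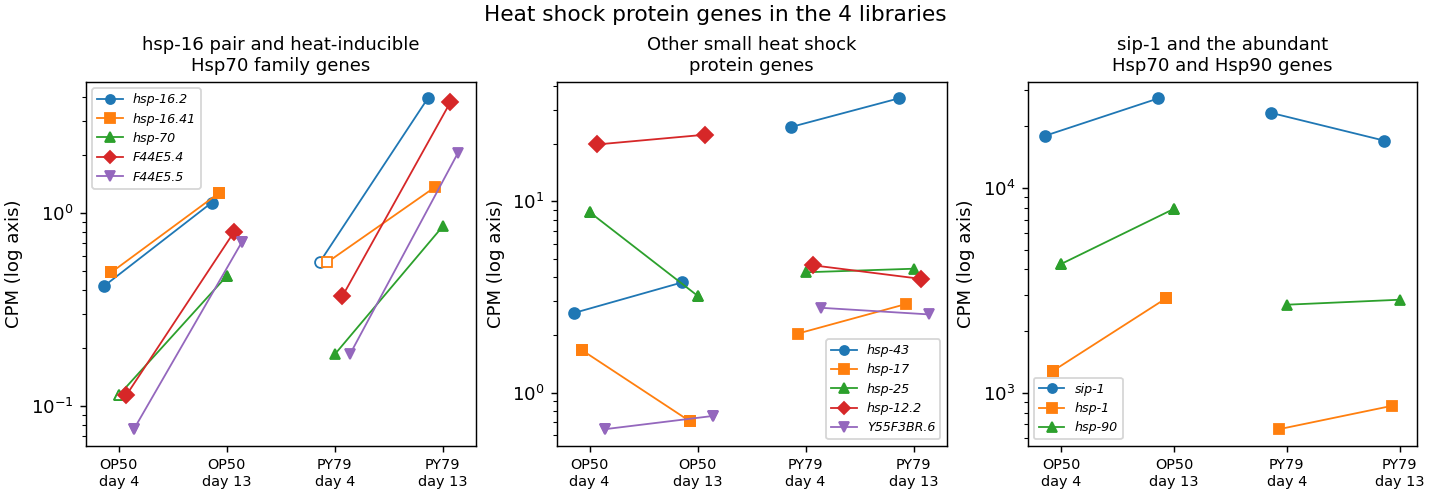
Levels of heat shock protein genes in the 4 libraries, in CPM on log axes, with a line joining the 2 ages of each diet and an open symbol for a count of 0 drawn at its limit of 3 reads. The left panel holds the hsp-16.2 pair and 3 inducible Hsp70 family genes, the middle one hsp-43, hsp-17, hsp-25, hsp-12.2 and Y55F3BR.6, and the right one sip-1 with hsp-1 and hsp-90. In the left panel the day 13 value is above the day 4 value for each gene on each diet. The 3 Hsp70 family genes passed the filter on low reads only through day 13 libraries, so for them this is not a separate result. For hsp-70 on PY79 the interval of the age ratio (0.517 to 218) includes 1. Between the diets at day 13 the intervals of hsp-16.41 (ratio 0.42 to 2.43) and hsp-70 (0.486 to 5.82) include a ratio of 1.

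Of a list of 8 genes, DAF-16 targets and daf-16 itself, 6 were tested and 1 was not analysed here. With age 1 rose and 0 fell in edgeR, against 3.52% and 4.05% of all genes. The gene that rose was lea-1, a LEA-like desiccation protein gene (log2 change 2.23, edgeR adjusted p = 0.00217). At an unadjusted p under 0.05 the counts were 2 and 0. With diet 0 rose and 2 fell (icl-1 and ctl-2), against 14.8% and 17% of all genes. The counts were 0 and 3 unadjusted, and DESeq2 gave 0 and 3 after adjustment, where 504 of all 9032 genes rose and 1276 fell. By pair of libraries 2 were higher and 1 lower with age on OP50, and 3 and 0 with age on PY79. With diet 0 were higher and 5 lower at day 4, and 1 and 1 at day 13. In that order the shares of all genes were 14.6% and 18.9%, 6.31% and 7.97%, 25.4% and 23.5%, and 22.6% and 22.3%. mtl-1, a metallothionein gene and the most read of the list, stood at 1605.6, 2231.3, 538.6 and 1765.2 CPM and did not pass (edgeR adjusted p = 0.292 for age). dod-3 had 4335, 863, 362 and 488 reads and did not pass. icl-1, a glyoxylate cycle enzyme gene, fell with diet (log2 change -1.43, edgeR adjusted p = 0.0380), but not with total reads (log2 -0.88, adjusted p = 0.201). With total reads and with summed lines 0 genes of this list fell with diet after adjustment. At an unadjusted p under 0.05, 0 were lower with total reads and 3 with summed lines.

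Because the RNA is from whole worms, fewer cells of a type and less RNA per cell cannot be told apart. Marker lists of the tissues in which these genes are known were therefore read beside them. The egg and embryo list (17 genes, none at 0 in a library) is the one for sip-1. Its summed level was 14513.9, 22725.5, 8010.7 and 8334.8 CPM. Both it and sip-1 were higher at day 13 than at day 4 on OP50, and on PY79 the list was 8010.7 and 8334.8 while sip-1 went from 23268.5 to 17044.0. perm-4 and perm-2, eggshell genes, held most of the sum, with 15496.5 and 6104.8 CPM in OP50 day 13. The rise of the sum on OP50 was carried by perm-4, which stood at 6560.4 CPM in OP50 day 4. The list's median log2 age ratio was -0.265 on OP50 and -0.62 on PY79, beside 0.02 and -0.11 for all genes. By pair of libraries 1 of the 17 was higher (perm-4) and 5 lower with age on OP50, against 14.6% and 18.9% of all genes. On PY79 0 were higher and 2 lower, against 6.31% and 7.97%. In edgeR 0 rose and 2 fell with age, against 3.52% and 4.05% of all genes. With diet 3 rose and 1 fell, against 14.8% and 17%. At an unadjusted p under 0.05 the age counts were 0 and 4. cpg-1 and cpg-2 are also eggshell genes, and cpg-2 fell with age (log2 change -2.47, edgeR adjusted p = 0.00465). The part of egg and embryo content in the sip-1 levels was not tested.

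The body muscle list (9 genes of the contractile apparatus, none at 0) is the one for hsp-25. Its summed level was 1387.7, 298.5, 397 and 163.1 CPM, so that, as with hsp-25, OP50 day 4 stood above the other 3 libraries. With age 8 of 9 were lower on OP50 and 5 of 9 on PY79, against 18.9% and 7.97% of all genes. No gene of the list was higher, against 14.6% and 6.31%. The PY79 age ratio of hsp-25, in contrast, was 1.04. In edgeR 5 fell with age and 0 rose (6 and 0 unadjusted), against 4.05% and 3.52% of all genes after adjustment. None of the list passed for age after adjustment with total reads. pat-10, a troponin C gene, stood at 541.5, 122.0, 38.5 and 13.5 CPM and fell with age (log2 change -1.84, edgeR adjusted p = 0.0190). unc-27, a troponin I gene, fell with age (log2 change -2.13, edgeR adjusted p = 0.00573). The part of muscle content in the hsp-25 levels was not tested.

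**Figure D4:**
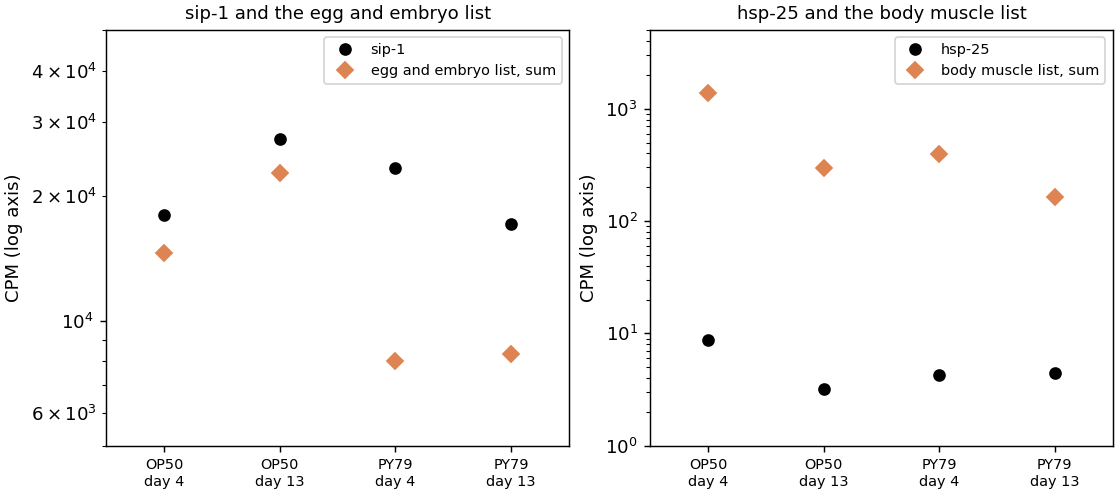
sip-1 beside the summed level of the egg and embryo list, and hsp-25 beside that of the body muscle list, in CPM on log axes, 1 point per library. The egg and embryo sum was between 8010.7 and 22725.5 CPM and the body muscle sum between 163.1 and 1387.7 CPM.

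The remaining lists were measured for the other tissues. Over all genes 3.52% rose and 4.05% fell with age in edgeR, and 14.8% rose and 17% fell with diet. The epidermis list summed to 613.4, 318.5, 600.3 and 84.3 CPM, nearly all from the adult cuticle collagen gene col-19, and 3 of its 6 genes were tested, of which col-19 fell with age (edgeR adjusted p = 0.0179). The intestine list summed to 382.3, 186.4, 297.5 and 67.7 CPM, mostly from asp-1, and of its 6 genes tested 0 rose and 0 fell with age in edgeR and in DESeq2, with 0 and 3 in edgeR at an unadjusted p under 0.05. The neuron list summed to 47.3, 61.2, 38.3 and 33.5 CPM, and of 4 of its 7 genes that were tested 0 passed with age (0 unadjusted) and 1 fell with diet, egl-21. These values and the hsp-43 level were set side by side only, and the part of tissue content was not tested.

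For each of the 6 genes, the genes with the most similar profile were found by the Euclidean distance between log2 CPM profiles over the 4 libraries, each centred on its mean. With 4 points, many genes can lie close by. Nearest to hsp-16.2 were ZC376.8 (distance 0.73), D1086.9 (1.03) and C01G10.5 (1.08), all at 0 reads in PY79 day 4. Nearest to hsp-16.41 were K09B3.1 (0.34), spe-11 (0.44) and K08F4.5 (0.44), also at 0 reads there. Nearest to hsp-43 were R08D7.4 (0.19), mina-1 (0.21) and exos-8 (0.30). Nearest to hsp-25 were cec-1 (0.06), bra-2 (0.10) and usp-3 (0.12), nearest to hsp-17 were F49E2.5 (0.06), F53H1.4 (0.11) and T24G10.2 (0.12), and nearest to sip-1 were dpy-10 (0.04), wrn-1 (0.09) and F21F3.7 (0.09). Some of these genes had few reads, such as usp-3 (29, 8, 3 and 3), dpy-10 (15, 19, 4 and 3) and wrn-1 (36, 44, 9 and 7). Counting error in their profiles was not taken into account.

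Among themselves the 6 genes were not one pattern. hsp-16.2 and hsp-16.41 were closest to each other (distance 1.40). Distances to these 2 genes depend on the prior count of 1, since both are at 0 in PY79 day 4. hsp-43 was closest to hsp-17 (2.39), but hsp-17 was closer to hsp-25 (1.44) and sip-1 (1.90). Both hsp-43 and hsp-17 were highest in PY79 day 13 and second highest in PY79 day 4. For hsp-17 the diet ratio at day 4 was within counting error of 1 (0.569 to 2.41). The order of the libraries by level was PY79 day 13, OP50 day 13, OP50 day 4 and PY79 day 4 for both hsp-16 genes with TMM. The last 2 libraries could not be told apart for either gene, nor the first 2 for hsp-16.41, where their order turns with DESeq2 size factors (log2 ratio -0.05 in place of 0.10). For sip-1 it was OP50 day 13, PY79 day 4, OP50 day 4 and PY79 day 13, and for hsp-25 it was OP50 day 4 first with the other 3 within counting error of each other.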

How the data were processed

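Poly(A) RNA of whole worms was sequenced as 3' end-enriched libraries, 1 each for OP50 and PY79 at day 4 and day 13. The deposited file holds the authors' raw counts of reads for each of 24775 transcript lines, not normalized. The submitters' processing notes name Bowtie 0.12.7. Counting tool, build, annotation and strand setting were not given in the sources used here, and coordinates and sequences are therefore left out. Per gene the transcript line with most reads over the 4 libraries was used, and 2 lines naming no gene held 0 reads. Symbols, lengths and neighbors came from Ensembl 115 (16760 of 17096 genes matched), which may differ from the annotation used for counting.

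The filter kept the 9032 genes that reached 10 reads in a library or more. TMM factors were 0.922, 0.742, 1.12 and 1.31 in the order OP50 day 4, OP50 day 13, PY79 day 4 and PY79 day 13, and log2 ratios used a prior count of 1. A pair of libraries was compared by the ratio, its exact 95% Clopper-Pearson interval and a 2-fold threshold, with a library at 0 set to 3 reads for the fold. edgeR 4.0.16 (glmQLFit and glmQLFTest) fitted diet and day additively, with a common dispersion of 0.138, infinite prior degrees of freedom and a threshold of 0.05 on the Benjamini-Hochberg adjusted p. Departure from additivity serves as the spread, which is pooled over all genes where the prior degrees of freedom are infinite. With total reads they were 4.83. The scripts were tested on simulated data. Alternatives were total reads, DESeq2 size factors, DESeq2 1.42.0's Wald test, summed lines, no filter, at least 10 reads in every library, a prior count of 5 and a 1.5-fold threshold.

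The members and lists were chosen with earlier results of these data known. All members are named, and other genes are the up to 4 with most reads in each list, those named after their values were seen, and the 3 nearest profiles. hsp-90 and pept-1 entered the lists under the older names daf-21 and opt-2.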

Additional observations from a re-analysis of the deposited data

Results flagged for a closer look

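sip-1 lay in opposite directions in the groups, with counting intervals that leave out a ratio of 1 on both sides. Its log2 age ratio was 0.60 on OP50 and -0.45 on PY79, and its log2 diet ratio was 0.37 at day 4 and -0.68 at day 13. Each group has 1 library, and the difference between groups was not tested. With total reads the age ratios were 0.29 and -0.22 and the diet ratios 0.65 and 0.13.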

How the results depend on the processing

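The depth of the PY79 libraries and the single library per group limit every value. No paired analysis was possible because each group has 1 library, and leaving out a library was not run for the same reason, since a comparison would lose a group.

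With at least 10 reads in every library, 2 members were called with age on OP50 and 0 with age on PY79, since hsp-16.2 and hsp-16.41 are then not tested, and the calls among 4741 genes were 1260 with age on OP50, 622 with age on PY79, 2812 with diet at day 4 and 2585 with diet at day 13. With total reads 1 member was called with diet at day 4. The members that passed for age in edgeR went from 1 to 0 with total reads, with DESeq2's Wald test and with at least 10 reads in every library, and the genes that passed in either direction numbered 1, 300 and 192, against 684 with TMM. For diet in edgeR, 1885 genes passed with total reads and 1780 with DESeq2, against 2873. In edgeR the prior degrees of freedom went from infinite with TMM to 4.83 with total reads. The causes were not tested, except that fewer genes are tested where every library needs 10 reads. Of the values of single members 88 kept within the counting spread and 16 moved, and 4 of 96 log2 ratios changed sign, among them those of sip-1 and hsp-25 with diet at day 13. The PY79 over OP50 age ratio of sip-1, with total reads as an alternative chosen after seeing the data, was 0.701 in place of 0.482. With a 1.5-fold threshold sip-1 was called higher with age on OP50 and lower with diet at day 13.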
